A study of Mus with 50 samples.

Results

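The 10 genes described here encode chaperones, folding aids and degradation factors of the endoplasmic reticulum, together with Xbp1, a transcription factor that controls many of them. They were taken as a fixed list of names, and each gene was read from the probe set that carried its symbol alone and had the highest median. Of the 10 genes, 9 had such a probe set. Pdia4, a disulfide isomerase of the endoplasmic reticulum, was present only on a probe set that also carried the microRNA gene Mir704, so no value is given for it. The 9 genes belong to 22180 named genes on the array, of which 11090 lay at or above the median level of named genes (a log2 signal of 3.61) and were tested. All 9 were among them.

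The data came from the livers of 50 female mice, profiled on 1 Affymetrix whole-transcript array per mouse. All were offspring of a C57xFVB backcross, carried the MMTV-Neu transgene (the Neu proto-oncogene driven by the mouse mammary tumour virus promoter, which is active mainly in mammary epithelium) and are labelled with breast cancer as comorbidity. The mice were selected for extreme values of a grade of ageing, but no label used here assigns a mouse to either end of that grade. The 50 livers therefore form 1 group, and the questions that can be asked are how far each gene varied from mouse to mouse and which genes varied together. Ages and treatments are not in those labels. Mice are called here by the animal number in their labels, from 7 to 301.

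The endoplasmic reticulum folds secreted and membrane proteins, and the liver, which makes most plasma proteins, relies on it heavily. When unfolded proteins accumulate there, the sensors ATF6, IRE1 and PERK start the unfolded protein response: ATF6 and the spliced form of XBP1 raise chaperones and degradation factors, while PERK slows translation and raises ATF4 and CHOP. The chaperone genes are known to respond in concert. In liver they also vary with feeding and with the time of day.

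The deposited values are log2 signals made with RMA, a method that brings all arrays to 1 distribution. They compare the same gene between livers, and the level of a gene cannot be set against that of another gene. A difference of 1 is a 2-fold difference. With 1 array per mouse, the spread over mice holds biological and technical differences together. Fewer cells of a type and less RNA per cell cannot be told apart in whole tissue.

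The 50 arrays had medians from 3.27 to 3.34. The extraction protocol speaks of purified cells although the tissue is given as liver. All 8 hepatocyte markers lay at or above the level limit, with a mean log2 signal of 11.61 in the median liver and of 9.65 in the lowest, that of mouse 64. The livers of mice 64, 84, 87 and 235 stood apart from the others over all genes, with median correlations of 0.794, 0.903, 0.932 and 0.857 with the other livers, and results are given with and without these 4. Marker genes of pancreatic acinar cells had a median mean of 3.14 over the livers, but 10.94 in mouse 96, 8.56 in mouse 149, 7.48 in mouse 170, 5.17 in mouse 142, 4.95 in mouse 24 and 4.79 in mouse 301, and at most 3.77 in the others. Macrophage markers were highest in mouse 235, with a mean of 10.23 against a median of 7.60.

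The most variable of the 9 genes was Creld2, which encodes a cysteine-rich protein of the endoplasmic reticulum lumen known to be induced by misfolded proteins. Its log2 signal was 6.57 in the lowest liver (mouse 142), 8.26 at the median and 10.31 in the highest (mouse 84), a 13.4-fold range. Its SD of 0.79 exceeded that of 97.4% of the genes tested. Sdf2l1, a small lumenal protein that works with J-domain co-chaperones, ran from 6.25 (mouse 96) through a median of 7.53 to 9.08 (mouse 84), with an SD of 0.68. Dnajb9 (ERdj4), a J-domain co-chaperone of BiP, ran from 6.82 (mouse 64) through 8.59 to 9.57 (mouse 128), with an SD of 0.59. None of these 3 genes divided the livers into separate classes.

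The large chaperones varied less. Hspa5 encodes BiP, the Hsp70 of the endoplasmic reticulum, which binds unfolded chains and holds the stress sensors inactive. Its signal was 7.94 in the lowest liver (mouse 96), 8.90 at the median and 10.13 in the highest (mouse 84), with an SD of 0.40 and a 4.57-fold range. Mouse 84 was 0.72 above the next liver, that of mouse 128 at 9.41. Hsp90b1, the Hsp90 of this compartment (GRP94), had 10.60 in mouse 64, a median of 11.55 and 12.56 in mouse 84, with an SD of 0.27. Calr, the lectin chaperone calreticulin, had 10.61 in mouse 64, a median of 11.22 and 11.72 in mouse 84, and its SD of 0.21 was larger than that of only 20.3% of the genes tested.

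The degradation factors and the regulator had SDs from 0.32 to 0.41, close to that of Hspa5. Herpud1, a membrane protein of the degradation complex around the ubiquitin ligase Syvn1, ran from 8.98 (mouse 64) through 10.46 to 11.29 (mouse 24), with an SD of 0.41. Edem1, which directs misfolded glycoproteins to degradation, ran from 7.44 (mouse 64) through 9.52 to 10.04 (mouse 179). Mouse 64 stood 1.33 below the next liver in Edem1, that of mouse 235 at 8.77, and the SD of 0.36 was 0.19 without the 4 livers that stood apart. A further Edem1 probe set, close to the level limit, ran from 3.34 to 4.24. Xbp1 had 8.51 in mouse 64, a median of 9.28 and 10.28 in mouse 84, with an SD of 0.32. Its probe set reads the gene as a whole and does not separate the spliced from the unspliced mRNA. The median SD of the 9 genes was 0.40, against 0.28 over the 11090 genes tested, and 0.35 against 0.23 without the 4 livers.

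**Figure D1:**
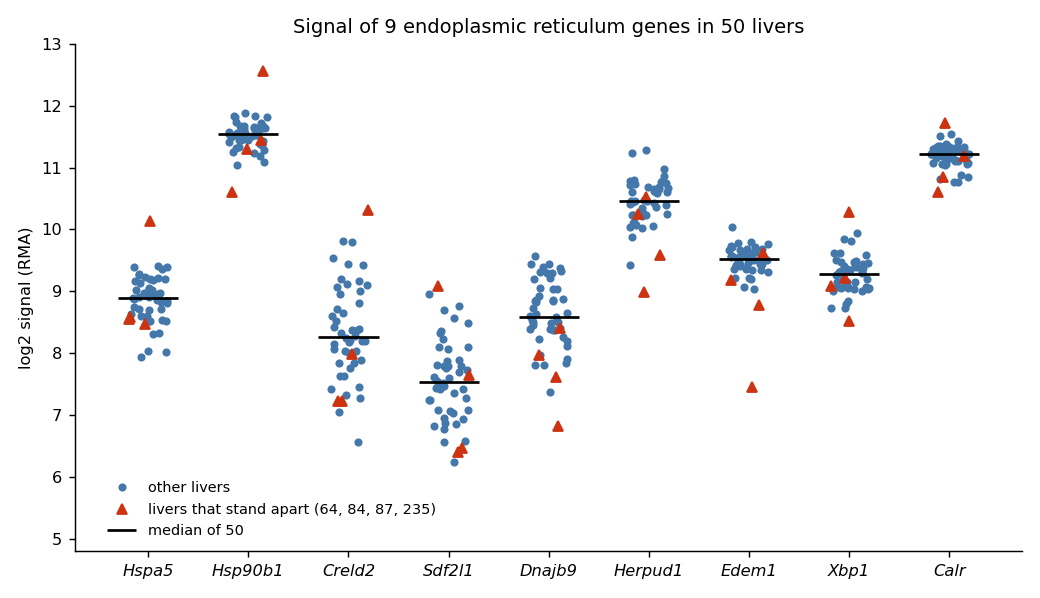
Log2 signal (vertical axis) of the 9 genes in 50 livers, 1 point per liver, spread sideways for legibility; bars are medians and triangles the 4 livers that stood apart over all genes. Creld2, Sdf2l1 and Dnajb9 spread widest (SD 0.79, 0.68 and 0.59) and Calr least (0.21); mouse 64 is the lowest point of Edem1 at 7.44, and heights of different genes cannot be compared.

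To describe which genes followed BiP, each gene was fitted on the Hspa5 signal over the 50 livers with limma, and a gene was called at a Benjamini-Hochberg adjusted p under 0.05 over all genes. Of 11089 genes, 307 were called, 291 with a positive slope (2.62% of the genes) and 16 with a negative one. Among the 8 other members, 7 were called, all with a positive slope, and Herpud1 was not. The median r of the 8 with Hspa5 was 0.71, against 0.05 over all genes. Hspa5, Creld2, Sdf2l1 and Hsp90b1 had already led a list of stress genes in an earlier account of these data, so their agreement here is no independent support.

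Creld2 followed Hspa5 most closely, with r = 0.91 (Spearman's rho 0.91). It was higher by 1.79 ± 0.11 (SE) log2 units per unit of Hspa5 (limma, adjusted p = 3.16e-17, n = 50), so that its spread over mice was the wider of the pair. The relation held within each of 4 stretches of animal numbers, 7 to 79, 84 to 128, 137 to 235 and 253 to 301. They held 8, 13, 16 and 13 mice, and r was 0.91, 0.92, 0.97 and 0.96. The stretches were taken from an earlier account and are not batches named by the labels. Hsp90b1 had r = 0.83 and a slope of 0.56 ± 0.06 (limma, adjusted p = 3.13e-09), and Sdf2l1 r = 0.76 and a slope of 1.29 ± 0.15 (limma, adjusted p = 3.57e-08). For these 3 genes and for Dnajb9 and Calr, the permutation p of r and of rho was 1e-05, the smallest that 100000 permutations can give. Without mice 84 and 96, the 2 livers farthest from the median of Hspa5, r was 0.90 for Creld2, 0.78 for Hsp90b1 and 0.70 for Sdf2l1.

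Dnajb9 followed Hspa5 with a slope of 1.04 ± 0.15 and r = 0.71 (limma, adjusted p = 1.88e-06). Its relation was closer without the 4 livers that stood apart, with r = 0.85, and mouse 84 was the main departure: that liver ranked first of 50 in Hspa5 and 33rd in Dnajb9. Calr had r = 0.70 and a slope of 0.37 ± 0.06 (limma, adjusted p = 3.65e-05). Within the 4 stretches, r with Hspa5 was 0.72, 0.63, 0.90 and 0.64 for Dnajb9 and 0.73, 0.87, 0.76 and 0.37 for Calr.

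Edem1, Xbp1 and Herpud1 had a lower r with Hspa5, and the calls for them turned on single livers. Their rho was 0.62, 0.45 and 0.41, beside 0.62 for Calr. Edem1 had r = 0.46 and a slope of 0.41 ± 0.12 (limma, adjusted p = 0.0337; permutation p = 0.00291). Its call was lost without mouse 96 or without mouse 128, with an adjusted p of up to 0.0619, while without the 4 livers r was 0.62 (limma, adjusted p = 0.000818). Xbp1 had r = 0.49 and a slope of 0.39 ± 0.10 (limma, adjusted p = 0.0199; permutation p = 0.00048), and its call was lost without mouse 84 alone (limma, adjusted p = 0.122). Without the 4 livers Xbp1 had r = 0.31 (limma, adjusted p = 0.21). Herpud1 had r = 0.40 and a slope of 0.41 ± 0.13 (limma, adjusted p = 0.0811; permutation p = 0.00419) and was called only when mouse 84 was left out, alone (limma, adjusted p = 0.0131) or with the other three (limma, adjusted p = 0.0178). The relations of these 3 genes with Hspa5 were not tested against those of the other genes.

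**Figure D2:**
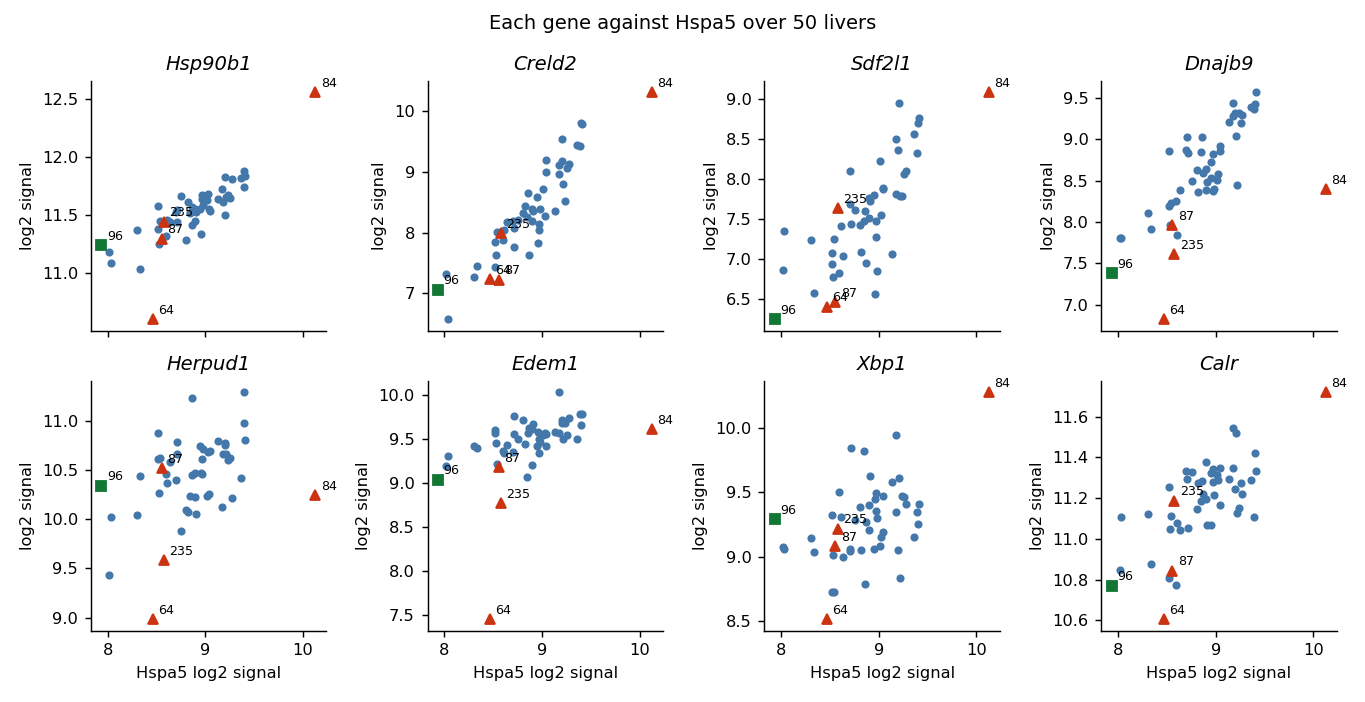
Log2 signal of each of 8 genes (vertical axes) against that of Hspa5 (horizontal axes), 1 point per liver, n = 50; triangles are the 4 livers that stood apart and the square is mouse 96, which had the lowest Hspa5 signal. Creld2 lies closest to a line (r = 0.91), and Herpud1 (r = 0.40) and Edem1 (r = 0.46) have the lowest r, though the rho of Edem1 is 0.62. Mouse 64 is the lowest point in Hsp90b1, Dnajb9, Herpud1, Edem1, Xbp1 and Calr, and mouse 84 lies to the right in every panel.

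The livers at the ends of the Hspa5 range are listed with their places in the other members. They were picked on the same Hspa5 values as the fits, so the counts describe the livers and add no support. Such counts were not made over all genes, and a gene unrelated to Hspa5 could also reach some. The 5 livers highest in Hspa5 were those of mice 84, 128, 149, 24 and 265. All 5 were among the 10 highest livers in Hsp90b1, Creld2 and Sdf2l1, 4 of them in Dnajb9, 3 in Herpud1 and Calr, 2 in Edem1 and 1 in Xbp1. The 5 lowest were those of mice 96, 10, 142, 231 and 229. All 5 were among the 10 lowest in Creld2 and Dnajb9, 4 in Hsp90b1, 3 in Sdf2l1, Herpud1, Edem1 and Calr, and 1 in Xbp1. The 6 livers with raised acinar markers lay at both ends and in the middle of the Hspa5 range: mice 149, 24 and 170 ranked 3rd, 4th and 10th, mouse 301 ranked 30th, and mice 142 and 96 ranked 48th and 50th. Over all 50 livers the acinar marker mean had r = -0.10 with Hspa5.

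Mice 84 and 64 had contrasting patterns. Mouse 84 ranked first of 50 in Hspa5, Hsp90b1, Creld2, Sdf2l1, Xbp1 and Calr, but 13th in Edem1, 33rd in Dnajb9 and 36th in Herpud1. Mouse 64 ranked last in Hsp90b1, Dnajb9, Herpud1, Edem1, Xbp1 and Calr, 49th in Sdf2l1, 47th in Creld2 and 45th in Hspa5. That liver also had the lowest mean of the hepatocyte markers, and the part of this in its low signals was not tested. Mouse 179 was the second highest in Dnajb9, Xbp1 and Calr and the highest in Edem1, while it ranked 13th in Hspa5 and 41st in Herpud1.

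Each pair of members was then examined with each gene in turn as the covariate. A pair was called when limma's adjusted p was under 0.05 in both directions. Of 36 pairs, 27 were called, and r was above 0 in all 36, with a median of 0.60. The median over all pairs of the 11090 genes was 0.01. Without the 4 livers that stood apart, 21 pairs were called and the median r was 0.54. The share of all genes called differs between the covariates and is given beside each below.

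A group of 6 members, Hspa5, Hsp90b1, Creld2, Sdf2l1, Dnajb9 and Calr, was related throughout. After Hspa5 with Creld2, the closest pair was Creld2 with Sdf2l1 at r = 0.86 (rho 0.86; limma, adjusted p = 4.34e-13 on Creld2), with r = 0.92, 0.94, 0.81 and 0.77 in the 4 stretches. Hsp90b1 and Calr, both abundant calcium-binding chaperones, had r = 0.81 (rho 0.74; limma, adjusted p = 5.58e-08 on Hsp90b1). Without the 4 livers these pairs had r = 0.83 and 0.72. Calr and Dnajb9 were the least related of the 6, with r = 0.60 (rho 0.54; limma, adjusted p = 0.000562 on Dnajb9). These 6 genes were grouped after their values were seen.

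Dnajb9 and Edem1 were related at r = 0.72 (rho 0.68; limma, adjusted p = 1.72e-06 on Dnajb9), and at r = 0.65 without the 4 livers. Dnajb9 and Herpud1 had r = 0.63 (rho 0.51; limma, adjusted p = 8.81e-05 on Dnajb9), but within the stretches r was 0.93, 0.25, 0.69 and 0.16, and without the 4 livers it was 0.48. Herpud1 and Edem1, which both serve degradation, had r = 0.61 with all livers (rho 0.36; limma, adjusted p = 0.000136 on Herpud1). Their r was 0.35 without mice 64 and 10, the livers farthest from the median of Herpud1, and 0.30 without the 4 livers (limma, adjusted p = 0.487). This pair thus rested on a few low livers.

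Xbp1 and Herpud1 were the members with the lowest correlations. The median r with the other 8 was 0.40 for each, and each had 3 pairs called with all livers and none without the 4, where limma gave unadjusted p under 0.05 to 3 members on Xbp1 and 5 on Herpud1. Herpud1 and Xbp1 had the lowest r of all pairs, 0.07 (rho -0.02; permutation p = 0.617), and -0.11 without the 4 livers. In the stretches this pair had r = 0.73, -0.51, -0.26 and -0.54, so the sign turned after the first stretch, which holds mouse 64. Hsp90b1 and Xbp1 had r = 0.56 (rho 0.38; limma, adjusted p = 0.0024 on Hsp90b1) and 0.26 without mice 84 and 64. The pairs of Xbp1 called with all livers were those with Hspa5, Hsp90b1 and Edem1, and those of Herpud1 were with Hsp90b1, Dnajb9 and Edem1.

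**Figure D3:**
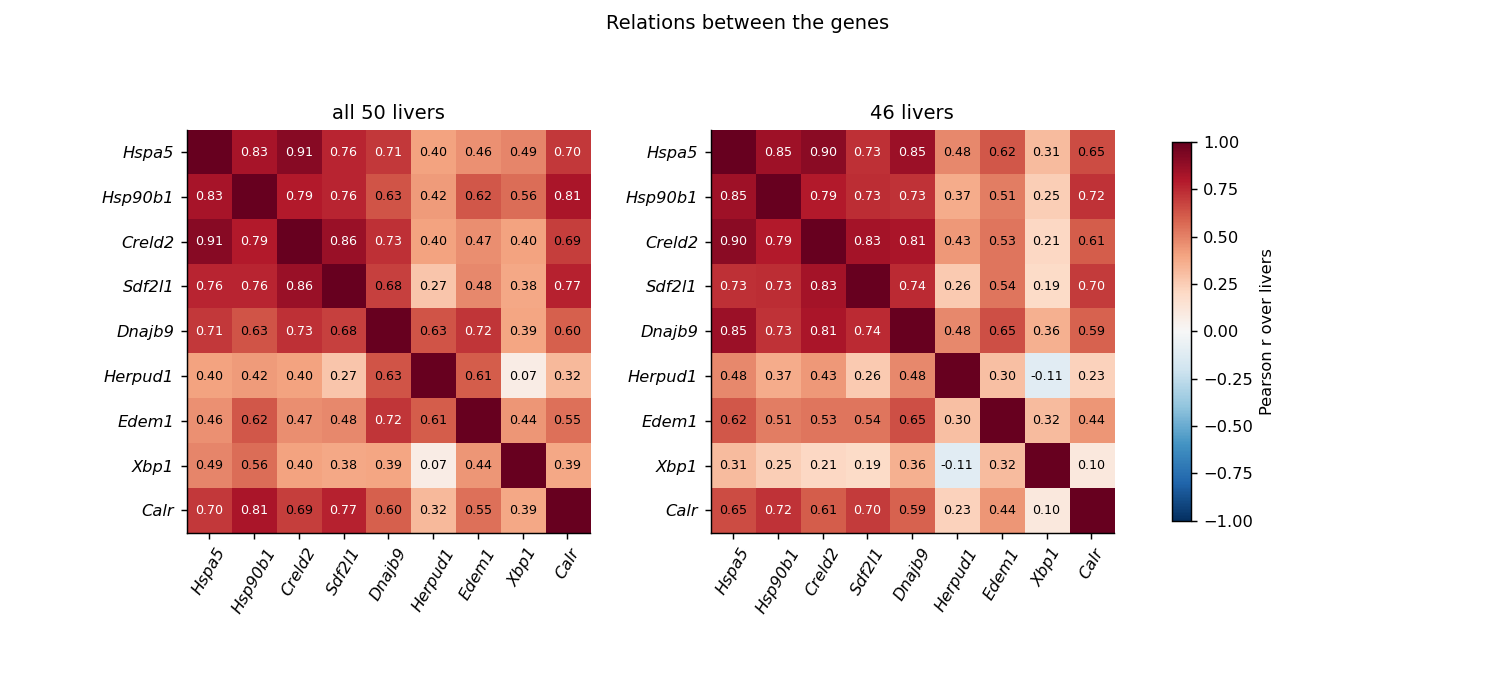
Pearson r between the 9 genes over all 50 livers (left) and over the 46 livers left without mice 64, 84, 87 and 235 (right); colour runs from blue at -1 to red at 1 and the values are printed in the cells. The block of Hspa5, Hsp90b1, Creld2, Sdf2l1 and Dnajb9 is high in both, and the column of Xbp1 is paler at right, with a highest r of 0.36.

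The share of all genes that went with a member differed widely between the members, and each member's relations are given beside it. Creld2 was followed, with a positive slope, by 2.01% of all genes and by 6 of the 8 other members, and Sdf2l1 by 1.75% and 6 of 8, Herpud1 and Xbp1 being the exceptions for both. Without the 4 livers the shares were 2.39% and 1.97%, again with 6 of 8. Calr was followed by 7.94% of all genes and 7 of 8 members, and by 5.7% and 6 of 8 without the 4 livers. Hsp90b1 was followed by 6.39% and 8 of 8 members, and by 1.61% and 6 of 8 without the 4 livers. In Hspa5 the share was 4.37% without them, again with 7 of 8 members, Herpud1 then being called and Xbp1 not.

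For 3 members the livers that stood apart set the picture. Edem1 was followed by 23.1% of all genes and by 8 of 8 members with all livers, but by 3.81% and 6 of 8 without the 4. Dnajb9 was followed by 14.6% and 8 of 8 with all livers, and by 2.43% and 7 of 8 without the 4. Herpud1 was followed by 14.3% and 5 of 8 with all livers, and by 0.00902% (1 gene) and 0 of 8 without the 4, where limma gave 5 of the 8 members an unadjusted p under 0.05. Counting both directions, 45.4% of all genes were called on Edem1, 31.4% on Herpud1 and 24.9% on Dnajb9 with all livers. Xbp1 was followed by 3.47% of all genes and 3 of 8 members, and by 2.62% and 0 of 8 without the 4, where limma gave 3 of the 8 an unadjusted p under 0.05.

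**Figure D4:**
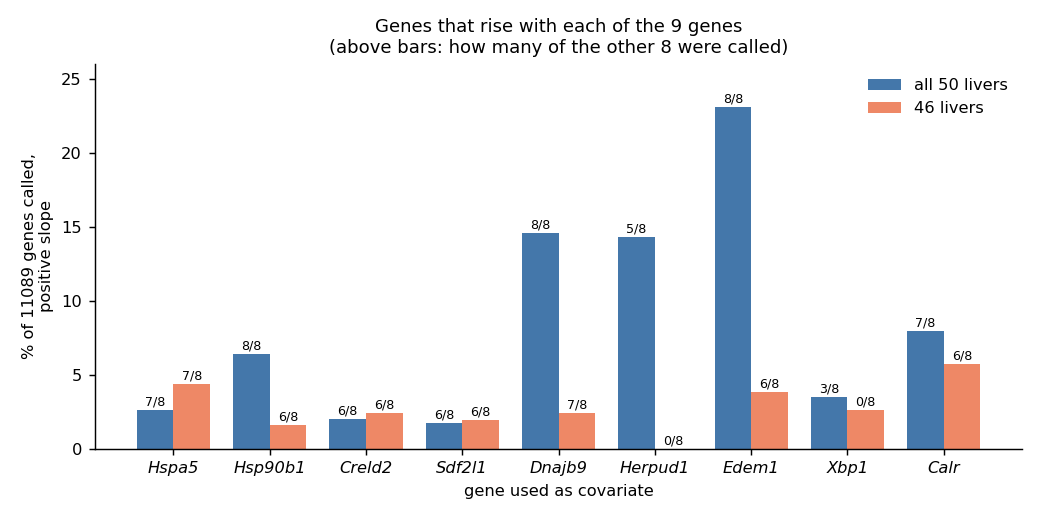
Percent of 11089 genes called with a positive slope (vertical axis, from 0) when each of the 9 genes served as covariate, over all 50 livers (blue) and over the 46 livers without the 4 that stood apart (orange); above each bar stands how many of the 8 other members were called. Edem1 drops from 23.1% to 3.81% and Herpud1 from 14.3% to 0.00902%, while Creld2 and Sdf2l1 stay between 1.75% and 2.39% with 6 of 8 members.

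The other genes of the secretory pathway were described by lists, again on Hspa5 and beside the 2.62% of all genes called with a positive slope. Of 25 other folding and redox genes tested, 12 were called, all with a positive slope, and the median r was 0.40. The closest was Manf, a secreted survival factor that binds BiP, with r = 0.91 (limma, adjusted p = 1.05e-15). Next were Hyou1, a nucleotide exchange factor of BiP, with r = 0.87, and Dnajb11 (ERdj3), a co-chaperone of BiP, with r = 0.86. Pdia3, a disulfide isomerase that works with calreticulin, had r = 0.70. Manf had a low signal, from 3.42 through a median of 3.97 to 5.07, and Hyou1 ran from 7.96 through 9.22 to 10.32. The slope on Hspa5 was 1.21 ± 0.10 for Hyou1 and 0.75 ± 0.05 for Manf.

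Of 16 degradation genes, 5 were called with Hspa5, all positive: Sel1l (r = 0.76) and Syvn1 (r = 0.75), which form the core of the Hrd1 ubiquitin ligase complex, Edem3 (r = 0.67), Derl3 (r = 0.58) and Selenos (r = 0.54). The median r was 0.36. Derl3 had r = 0.38 without the 4 livers (limma, adjusted p = 0.0915). Of 22 genes of protein entry and N-glycosylation, 11 were called, all positive, with a median r of 0.43, led by the signal peptidase subunit Sec11a (r = 0.70), the translocon partner Sec63 (r = 0.58) and the signal recognition particle receptor subunits Srpr (r = 0.57) and Srprb (r = 0.56). Of 19 genes of transport to the Golgi, 8 were called, all positive, with a median r of 0.40, among them the COPII coat genes Sec23b (r = 0.75), Sec24d (r = 0.70) and Sec31a (r = 0.62) and the cargo receptor Lman1 (r = 0.57). Over the members, these lists and the stress sensors described next, 44 of 102 genes were called with a positive slope (43.1%). They made up 15.1% of the 291 genes with a positive slope.

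Genes of the stress sensors were counted in the same way, and the difference from the lists above was not tested. Of 12 sensor and protease genes, 1 was called, Wfs1, a membrane protein that limits ATF6 signalling (r = 0.51; limma, adjusted p = 0.0106), and the median r was 0.15. Eif2ak3, which encodes PERK, had r = 0.41 (limma, adjusted p = 0.0781), Creb3l2 r = 0.41 and Atf6b r = 0.41. Without the 4 livers Wfs1, Eif2ak3 and Creb3l2 were called, at r = 0.51, 0.47 and 0.44, and the list's median r was 0.32. Of 13 genes of the PERK, ATF4 and CHOP arm, 1 was called, Ddit3, which encodes CHOP (r = 0.45; limma, adjusted p = 0.0365), and the median r was -0.08. The arm had 0 calls with all named genes tested, on ranks, with the heat shock component added and without the 6 livers of raised acinar markers, so the call of Ddit3 was lost there. Ddit3 ran from 4.43 through 5.08 to 6.02. Atf3, a target of ATF4, had r = -0.41 (limma, adjusted p = 0.0614) and was called with a negative slope without the 4 livers (limma, adjusted p = 0.0374). Ppp1r15a, the phosphatase subunit that restores translation, had r = -0.32 and Ddit4 r = -0.27.

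The chaperones of the cytosol were the other list with many calls. Of 15 heat shock genes, 9 were called with Hspa5, all positive, with a median r of 0.45, and 11 without the 4 livers, with a median of 0.59. Hspa8, the constitutive Hsp70, had r = 0.62, Hsph1 (Hsp110) 0.60, Chordc1 0.57 and the inducible Hsp90 gene Hsp90aa1 0.54. The count differed with the covariate: of the 15, 6 were called on Creld2, 7 on Dnajb9, 1 on Hsp90b1, 3 on Calr and 0 on Sdf2l1. The shares of all genes with a positive slope were 2.01%, 14.6%, 6.39%, 7.94% and 1.75%. Without the 4 livers the counts were 10, 8, 11, 7 and 5, beside 2.39%, 2.43%, 1.61%, 5.7% and 1.97%. On Edem1, Herpud1 and Xbp1 the counts were 2, 3 and 0, beside 23.1%, 14.3% and 3.47% of all genes. They were 7, 0 and 0 without the 4 livers, beside 3.81%, 0.00902% and 2.62%. On Sdf2l1 with all livers, limma gave 8 of the 15 an unadjusted p under 0.05, and on Xbp1 1. Without the 4 livers this held for 10 on Herpud1 and 0 on Xbp1. When the first component of the heat shock list was added as a second covariate, 7 of the 8 members were still called on Hspa5.

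The clock, lipogenesis and cargo lists gave no call on Hspa5 with all livers. At an unadjusted p under 0.05 in limma there were 2 clock genes, 2 lipogenesis genes and 0 cargo genes. For 14 clock genes the median r was 0.06, with the highest absolute value for Hlf (r = 0.34; limma, adjusted p = 0.183). For 12 lipogenesis genes it was 0.11, led by Me1 (r = 0.30) and Elovl6 (r = 0.28). Elovl6, a fatty acid elongase, and Acaca, acetyl-CoA carboxylase, were called without the 4 livers, at r = 0.51 and 0.43. The median r of the lipogenesis list was then 0.31, and 7 of the 12 genes had an unadjusted p under 0.05 in limma. The medians of the clock and cargo lists were then -0.03 and -0.01. For 14 genes of hepatocyte secreted cargo, such as albumin, transthyretin and fibrinogen, the median r was 0.04, with a range from -0.24 (Ttr) to 0.17 (Fgb). On Edem1, in contrast, 5 clock, 12 lipogenesis and 10 cargo genes were called with a positive slope, beside 23.1% of all genes. Without the 4 livers these counts were 2, 3 and 0. On Dnajb9, 6 clock, 9 lipogenesis and 4 cargo genes were called, all positive, beside 14.6% of all genes. Without the 4 livers these were 1, 0 and 0. On Herpud1 the counts were 4, 2 and 6, all positive, beside 14.3% of all genes, and 0 in each list without the 4 livers. The difference between the covariates was not tested.

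Of the marker lists of hepatocytes and of other cell types, 9 had genes at the tested level and none gave a call on Hspa5 by limma. Of their 44 genes, 5 had an unadjusted p under 0.05. On other members, limma did call markers with all livers. Hepatocyte markers with a positive slope were 6 of 8 on Edem1 and Herpud1, 4 on Dnajb9, 3 on Hsp90b1 and 2 on Calr. The shares of all genes were 23.1%, 14.3%, 14.6%, 6.39% and 7.94%. On Creld2, Sdf2l1 and Xbp1 there were 0 such markers. Of 10 macrophage markers, 4 were called negative on both Edem1 and Herpud1, beside 2470 and 1898 of 11089 genes. Without the 4 livers, none of these hepatocyte and macrophage calls remained, and Tdo2 was called negative on Xbp1. In other lists with all livers, the neutrophil marker Elane was called negative on Hsp90b1, Dnajb9, Herpud1, Edem1 and Calr. Col1a1 was negative on Dnajb9, Herpud1 and Edem1, and Col3a1 on Herpud1 and Edem1. Krt7 was positive on Xbp1, Clec4g was called on Dnajb9 and Edem1, and Lyve1 and Cela1 on Edem1. Elane and Col1a1 stayed called negative on Edem1 without the 4 livers. B and plasma cell markers, which matter here because plasma cells are rich in these chaperones, had a mean of 3.43 in the lowest liver, 4.09 in the median one and 5.999 in the highest, that of mouse 10, which was second lowest in Hspa5. This mean had r = -0.41 with Hspa5, and the 5 tested had r from -0.39 (Cd79b) to -0.18 (Jchain). The mean of the acinar markers, from another secretory cell type, had r = -0.10, and that of the macrophage markers -0.19. Without the 6 livers of raised acinar markers, r with Hspa5 was 0.90 for Creld2, 0.81 for Hsp90b1, 0.75 for Sdf2l1, 0.62 for Dnajb9, 0.71 for Calr and 0.53 for Xbp1, all called, and 0.41 for Edem1 (limma, adjusted p = 0.0985) and 0.32 for Herpud1, not called. The counts of called genes were then 6 for entry and N-glycosylation, 5 for transport to the Golgi, 5 for heat shock and 0 for the sensors. Of the other folding and redox genes, Txndc5, Txndc11, Uggt1 and Ganab were no longer called (limma, adjusted p from 0.0574 to 0.131). The degradation genes called with all livers stayed called. In that fit 2 B and plasma cell markers, Cd79a (r = -0.46) and Cd79b (r = -0.45), were called with a negative slope. The part of hepatocyte, B cell and macrophage signal in the members' relations was not tested. The 6 markers of mammary epithelium were below the level limit, and their mean had a median of 2.66, with 9.11 in mouse 161.

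**Figure D5:**
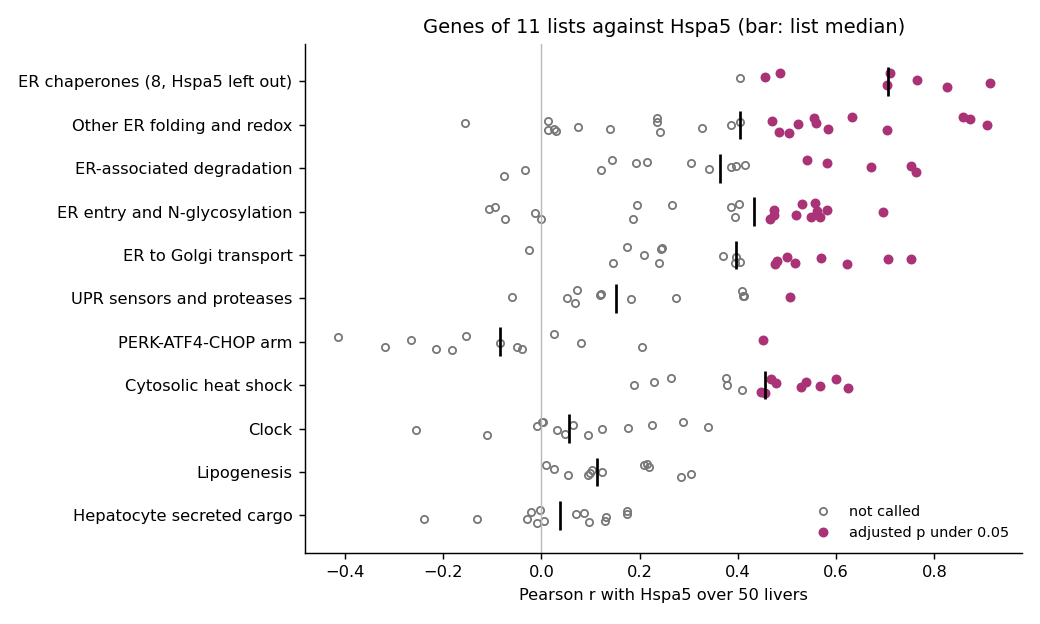
Pearson r with Hspa5 over 50 livers (horizontal axis) of each tested gene in 11 lists (rows); filled points had an adjusted p under 0.05 in limma over all genes, open points did not, and the bar is the list's median. Medians are 0.71 for the 8 members, 0.36 to 0.45 for the other folding, degradation, entry, transport and heat shock lists, 0.15 for the sensors and between -0.08 and 0.11 for the PERK, clock, lipogenesis and cargo lists.

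The genes most like the 9 members, by the mean r over all 9, were Hyou1 (0.71), Sel1l (0.70), Manf (0.69), Dnajb11 (0.67), the Golgi tethering factor Uso1 (0.67), Sec24d (0.66), the BiP co-chaperone Dnajc3 (0.65), the Hsp70 family member Hspa13 (0.65), Pdia3 (0.65) and the calcium pump Atp2a2 (0.63). Over 11081 genes the median of this mean was 0.03, with 5% of genes under -0.31 and 5% above 0.36. At the other end were the transcription factor gene Myc (-0.54), the histone demethylase Kdm7a (-0.52), the tetraspanin Tspan13 (-0.51), lamin B1 (Lmnb1, -0.50) and the leukocyte surface protein Spn (-0.49). Their r with Edem1 was the most negative, from -0.89 for Lmnb1 to -0.73 for Spn, except for Kdm7a, which had -0.75 with Dnajb9 and -0.74 with Edem1. Without the 4 livers, Hyou1 had the highest mean r (0.69) and Myc had -0.47, but Atp2a2, Pdia3 and Dnajc3 ranked 19th, 28th and 35th, and Lmnb1 had -0.31.

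Members aside, the nearest genes of each member were as follows. Manf and Hyou1 were nearest to Hspa5, Creld2 and Sdf2l1, with r between 0.79 for Manf with Sdf2l1 and 0.91 for Hyou1 with Creld2. Pdia3 was nearest to Hsp90b1 (r = 0.89) and to Calr (r = 0.90), followed by Dnajb11 for the former (r = 0.84) and Pdia6, another disulfide isomerase, for the latter (r = 0.87). Syvn1 and Sel1l were nearest to Dnajb9, with r = 0.87 and 0.81, and the former had rho = 0.91. The nearest genes of the remaining 3 lay outside the folding lists. Herpud1 was nearest to the growth factor Fgf1 (r = 0.72) and the nuclear receptor Nr1i3 (r = 0.71). Xbp1 was nearest to Nos1ap (r = 0.73) and Nbeal1 (r = 0.69). Edem1 was nearest to the thyroid hormone receptor Thrb (r = 0.86, rho 0.57) and to Cxcl12 (r = 0.86, rho 0.53), with r = 0.55 and 0.59 without the 4 livers.

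Animal number is the only numeric label of the mice, and what it follows (birth, litter or processing) is not given. Of 11090 genes, 9.3% were called on it by limma in either direction, and 0 of the 9 members were. At an unadjusted p under 0.05 there were 2. Xbp1 had a slope of -0.12 ± 0.05 log2 units per 100 numbers (r = -0.33; limma, adjusted p = 0.116) and Calr one of 0.08 ± 0.04 (r = 0.31; limma, adjusted p = 0.182). Xbp1 passed the threshold on ranks (limma, adjusted p = 0.0301) and without the 4 livers (limma, adjusted p = 0.0287, slope -0.14 ± 0.04). Its means in the 4 stretches were 9.34 ± 0.40, 9.37 ± 0.35, 9.31 ± 0.30 and 9.08 ± 0.19 (SD, n = 8, 13, 16 and 13), the last being the lowest. Calr had 10.93 ± 0.19 in the first stretch and between 11.21 and 11.26 in the others. Hspa5 had means of 8.73, 8.98, 8.88 and 8.84 (r = 0.00 with the number; limma, adjusted p = 0.99).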

How the data were processed

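Liver RNA of 50 mice (100 ng per array) was measured on Affymetrix arrays. Per the submitters' processing notes, the authors ran RMA (Affymetrix Expression Console 1.4.1) and deposited the resulting log2 signal of each probe set. The genome build is not given in the sources used here. Of 41345 probe sets, 23521 carried 1 gene symbol, 1814 several and 16010 none in the platform annotation; genes were named only from the first kind, taking the probe set with the highest median. The members and lists were chosen with earlier results of these data known.

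Each of 11090 genes at or above the median level was fitted on a member's signal, or on the animal number, by limma (version 3.58.1, R 4.3.3; lmFit, eBayes with trend, two-sided, Benjamini-Hochberg over all genes, threshold 0.05). The fit was tested on simulated data. Permutation p values for r and rho used 100000 permutations (two-sided, scipy 1.17.1). A liver stood apart if its median r with all others was over 3 interquartile ranges under the lower quartile of those medians. None of the 9 members met the rule for separate clusters in a normal mixture. That rule also asked for distance between the classes and for enough livers in each. A second component did improve the fit of Edem1 (gain in Bayesian information criterion 39.9) and Hsp90b1 (6.85). In Edem1, 1 liver, that of mouse 64, lay below the largest gap. The stretches of animal numbers came from an earlier account. The number of arrays limits the precision, and animals are taken as separate by their numbers. The limma p-values set each slope against the spread left between these livers.

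Genes named are the members, up to 4 genes per list with the largest absolute r with Hspa5, and all of a count of 5 or fewer, the 10 highest and 5 lowest by mean r over the members, and the 2 nearest of each member. Alternatives covered the level filter, the probe set rule, centring, ranks, added covariates, livers left out and eBayes without trend.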

Additional observations from a re-analysis of the deposited data

How the results depend on the processing

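With Hspa5 as covariate, 307 genes were called, 464 with the first component of all arrays added, and 570 without the 4 livers that stood apart. Leaving out each liver in turn gave from 246 (without mouse 10) to 529 (without mouse 84) genes and 6 to 7 of the 8 members. Members called on animal number were 0, and 1 (Xbp1) on ranks and also 1 (Xbp1) without the 4 livers. Genes called on animal number were 1031, and 1666 with the clock components added. The cause was not tested. Pairs called ranged from 20 (ranks) to 31 (with animal number) around 27. Creld2, Hsp90b1, Sdf2l1, Dnajb9 and Calr were called on Hspa5 under every alternative run, including each liver left out. The call of Edem1 was lost with all named genes tested (limma, adjusted p = 0.0576), with the stretches as a factor (0.0537) without the 2 livers of highest acinar signal (0.0718) and without the 6 where it was raised (0.0985), and that of Xbp1 with arrays centred (0.0555). Genes called on Hspa5 over the pathway and marker lists, members aside, were 47, and 31 without those 6 livers. The stretches, the removal of 2 or 6 acinar livers and the single livers left out were chosen after seeing the data. No direction of a member's relation with Hspa5 reversed in the alternative fits. Within single stretches, r of Herpud1 with Hspa5 was 0.70, -0.15, 0.59 and 0.06, negative in mice 84 to 128. Signal over background limits the low genes: Manf and the further Edem1 probe set lay near the level limit. No paired analysis was possible because all livers belong to 1 group.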
